A study of Homo sapiens with 12 samples.

Results

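BCL6 is a transcriptional repressor of the BTB zinc-finger family, and 5 genes around it are described here in A549 cells: BCL6, its close relative BCL6B, and the corepressor genes BCOR, BCORL1 and NCOR1. They were taken by gene name from the 58735 genes of the count table. BCL6 itself was selected from its measured values in these libraries, which were lower with GFI1 and higher after suspension, so its levels and changes in those comparisons are given as a description with no test. The other 4 genes were taken because of their relation to BCL6. Of the 5, 4 passed the low-count filter that left 17829 genes for testing, and BCL6B did not. A549, an established cell line, was derived from a human lung adenocarcinoma. Control A549 cells and A549 cells overexpressing the blood cell transcription factor GFI1 were harvested either attached to culture plates, untreated, or floating after 48 hours of forced suspension. This gave 4 groups of 3 libraries each. Per the study's methods, GFI1 was delivered by a lentivirus with a human PGK promoter and a GFP marker, and GFP+ cells sorted by flow cytometry were used for RNA-Seq. Neither the labels nor the methods say what the RNA-Seq controls carried, so effects of GFI1 and of transduction cannot be told apart. Nothing states that the replicates were separate cultures, so p-values measure only the spread between these libraries.

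BCL6 is best known from germinal centre B cells, where it keeps differentiation, cell cycle arrest and DNA damage checkpoint genes silent. Its zinc fingers bind DNA, and its N-terminal BTB domain recruits corepressors through a shared groove. NCOR1 brings the histone deacetylase HDAC3, whereas BCOR and BCORL1 are scaffolds of PRC1.1, a Polycomb complex that ubiquitinates histone H2A. GFI1 is also a zinc-finger repressor, which acts mainly through LSD1 and CoREST, and in blood cells it is known to oppose other lineage factors. Transcription of BCL6 is itself controlled by STAT and FOXO factors and by BCL6, which binds its own first exon.

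The labels were checked first. The libraries held 17014188 to 20748677 counts. GFI1 itself had 4 to 12 counts in each of 6 control libraries and 5154 to 12796 in each of 6 GFI1 libraries, so every library matched its genotype label. In floating GFI1 libraries GFI1 reached 560.1 ± 138 CPM against 290.1 ± 4.4 CPM in attached ones (SD, n = 3), where CPM is the count scaled by library size and TMM factor. All 6 epithelial keratin and adhesion markers and all 3 A549 markers examined passed the low-count filter. Among the epithelial markers EPCAM and KRT19 were low, with means of 2.25 and 1.11 CPM in attached control and 0.608 and 1.97 CPM in attached GFI1 cells. With GFI1 the mean of CDH1 went from 119.8 to 6.45 CPM in attached and from 85.4 to 3.99 CPM in floating cells. That of KRT7 went from 2077 to 1772 and from 1274 to 1164 CPM. The summed epithelial level was 10390 to 10990 CPM in attached control libraries, 4222 to 4339 in attached GFI1, 6529 to 6938 in floating control and 3039 to 3411 in floating GFI1 libraries, and its part in the results was not tested. The A549 markers summed to 11720 to 12370 CPM in attached control, 4806 to 4969 in attached GFI1, 12890 to 13140 in floating control and 3855 to 4483 in floating GFI1 libraries. They did not move together. With GFI1 the mean of ALDH1A1 went from 8245 to 3024 CPM in attached and from 8087 to 2017 CPM in floating cells. AKR1B10 went from 3081 to 481 and from 3790 to 425 CPM, whereas AKR1C1 went up from 654 to 1386 and from 1125 to 1722 CPM. Of 6 blood cell markers, 4 had at most 3 counts in any library and 1 of these was at 0 throughout, and their summed level did not exceed 1.64 CPM. The 3 fibroblast markers, of which 2 had at most 3 counts and 1 of these was at 0 throughout, summed to 0.0574 to 0.296 CPM in control and 1.74 to 3.69 CPM in GFI1 libraries. Their part in the results was not tested. The floating GFI1 libraries differed more among themselves than those of the other groups, with a chi-square per gene of 4.84 to 11.9 between pairs, where 1 is expected from counting alone, against 2.01 to 3.76 elsewhere.

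Short sequences around the BCL6 start are shown because the STAT-type motif TTCNNNGAA, and within it the BCL6 consensus TTCCTAGAA, are the letters through which those factors are known to bind. The motifs were chosen after the sequences had been seen. RefSeq windows of 250 bases before to 50 bases after a transcription start (GRCh38.p14) were available for 4 of the 5 genes, 8 windows in all. In the BCL6 window, which spans 187745419 to 187745718 of chromosome 3 (minus strand), TTCNNNGAA was found 4 times, starting at positions -28, -5, 11 and 37 from the start, where the first transcribed base is 1. The last of these also reads as TTCCTAGAA on the opposite strand. NCOR1 had the same 9 letters in its second window. The 3 sites below carry the motif in capitals, written 5′ to 3′ on the strand of the gene.
BCL6, chr3:187745483-187745501: tcaaaTTCCGAGAAttgag
BCL6, chr3:187745419-187745437: gaagtTTCTAGGAAaggcc
NCOR1, chr17:16194621-16194639: gtggtTTCCTAGAAacatg

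Of all 35116 windows in the table, 7.66% held TTCNNNGAA, 0.0199% held it 4 times or more, and 0.373% held TTCCTAGAA on either strand. The cutoff of 4 is the count in the BCL6 window itself, so nothing is read from the 0.0199%. Every TTCCTAGAA match is also a TTCNNNGAA match. The other 6 windows of these genes held neither motif. AAATCA, a stretch of the known GFI1 motif, was found on neither strand in the 8 windows and in 13.2% of all windows. Only exact matches were counted, and shorter or inexact forms of the GFI1 motif were not searched for. A match is a description of these letters only, and binding was not measured in these libraries. From ChIP-Seq in A549 cells expressing FLAG-tagged GFI1 and from its RNA-Seq, the study lists BCL6 among the genes bound and downregulated by GFI1. The ChIP-Seq gives the binding only. The downregulation comes from the RNA-Seq described here, whose values selected BCL6, so it is not separate evidence. Promoter peaks were reported for many genes, and nothing is read from this listing. Where the GFI1 binding at BCL6 lay relative to these windows was not examined here.

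BCL6 (ENSG00000113916) is a minus-strand gene of chromosome 3 from 187721377 to 187745727 in the deposited GRCh38 annotation. In attached control cells it was at 19.3, 19.1 and 21.1 CPM, and in attached GFI1 cells at 10.0, 11.1 and 11.2 CPM. In floating control cells it was at 52.1, 51.0 and 55.9 CPM, and in floating GFI1 cells at 19.5, 16.9 and 18.5 CPM. The floating control libraries were thus far above the rest, and the attached GFI1 libraries were below all others. In the order of group means, floating control (53.0 ± 2.55 CPM, SD, n = 3) came first, then attached control (19.8 ± 1.11), floating GFI1 (18.3 ± 1.28) and attached GFI1 (10.8 ± 0.650). The middle groups overlapped, since the highest floating GFI1 library exceeded the lowest attached control libraries. The counts behind these levels ran from 178 to 986 per library.

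As a description of the values that selected it, BCL6 was 1.84-fold lower with GFI1 in attached cells and 2.89-fold lower in floating cells (log2 fold changes -0.88 ± 0.08 and -1.53 ± 0.07, SE). After suspension it was 2.67-fold higher in control cells and 1.69-fold higher in GFI1 cells (1.42 ± 0.07 and 0.76 ± 0.08). In these 4 comparisons the groups of 3 libraries did not overlap. Over all genes tested, groups did not overlap, with the same direction as BCL6, for 34.8% and 32.7% with GFI1 in attached and floating cells and for 24.7% and 20.2% after suspension of control and GFI1 cells. Nothing is read from these shares for BCL6, which was chosen on these values. In bulk RNA, fewer cells expressing a gene and less RNA of it per cell cannot be told apart. Among the 17829 tested genes, 10.3% had a lower log2 fold change with GFI1 in attached cells and 5.41% in floating cells, while 1.96% and 4.48% had a higher one after suspension of control and GFI1 cells. Comparisons that share the attached control or another group share its libraries and are not independent of each other.

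The interaction is the difference between the suspension responses of GFI1 and control cells, and for BCL6 it is made of the same values that selected the gene, so it is also given without a test. The BCL6 response was 0.76 in GFI1 and 1.42 in control cells, a difference of -0.66 ± 0.11 log2 units (SE). The same number is the difference between the GFI1 effects in floating and attached cells. GFI1 itself was 1.93-fold higher in floating than in attached GFI1 cells, so state and GFI1 level cannot be told apart in this difference. Over all genes, 10.8% passed the threshold for the interaction, an adjusted p of 0.05 or less, 4.76% upward and 6.01% downward, from which nothing is read for BCL6. When single libraries were left out, the BCL6 difference ran from -0.71 to -0.61.

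**Figure D1:**
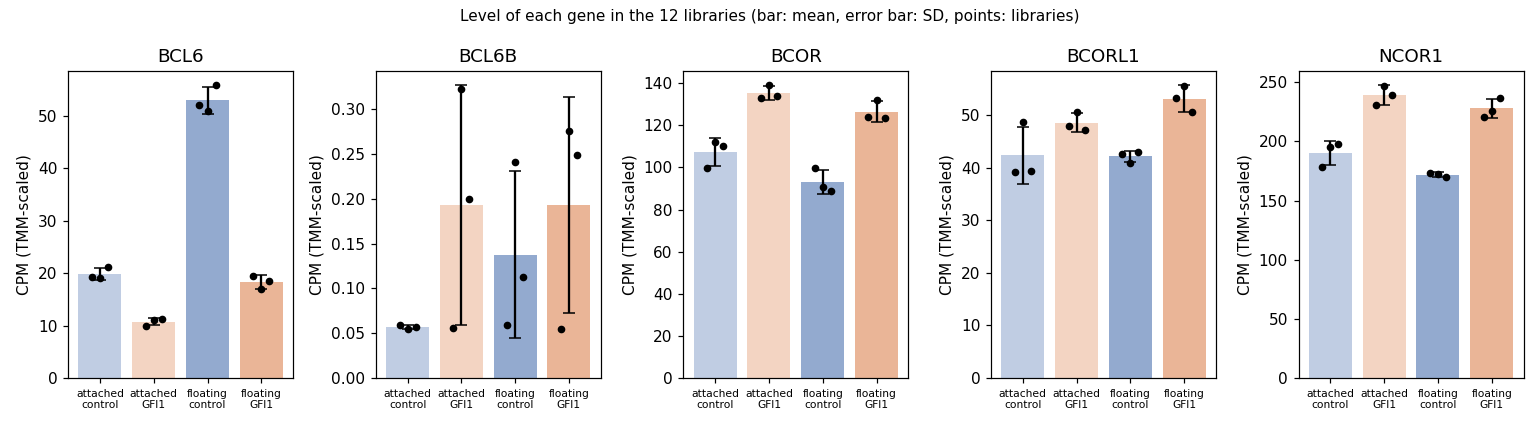
Level of BCL6, BCL6B, BCOR, BCORL1 and NCOR1 in CPM after TMM scaling, with bars for the mean, error bars for the SD and points for the 3 libraries of each of the 4 groups; each panel has its own axis from 0. BCL6 stands at about 53.0 CPM in floating control cells and at 10.8 to 19.8 CPM on average elsewhere, whereas BCOR and NCOR1 are higher in GFI1 than in control cells of each state.

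The deposited table also lists AC072022.2, an antisense gene that overlaps BCL6 on the opposite strand and was examined for that reason after its values had been seen. Its counts were 7, 11 and 18 in attached control, 19, 7 and 9 in attached GFI1, 45, 32 and 54 in floating control and 5, 7 and 8 in floating GFI1 libraries. As for BCL6, the floating control libraries were the highest, but attached control and attached GFI1 libraries overlapped. Its interaction, given without a test, was -2.63 ± 0.60 log2 units. Whether the counting used strand is not stated, so reads of BCL6 and of this gene cannot be told apart where they overlap. All its counts together were 222, against 5430 for BCL6.

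BCL6B (ENSG00000161940), which shares the BTB and zinc-finger architecture of BCL6, is a plus-strand gene of chromosome 17 from 7023020 to 7030290. Its counts were 1, 1 and 1 in attached control, 1, 7 and 4 in attached GFI1, 1, 4 and 2 in floating control and 1, 5 and 5 in floating GFI1 libraries. The groups overlapped or touched at 1 count in every comparison. A change of BCL6B was therefore not detectable at this depth. Without the low-count filter, its 5 adjusted p values ran from 0.234 to 1 (edgeR's quasi-likelihood test).

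The 3 corepressor genes were all expressed well above BCL6B and moved against BCL6 with GFI1. BCOR (ENSG00000183337), the scaffold that binds the BCL6 BTB domain, is a minus-strand gene of chromosome X from 40049815 to 40177329. BCOR was at 99.7, 112 and 110 CPM in attached control libraries and at 133, 139 and 134 CPM in attached GFI1 libraries. In floating cells it was at 99.7, 90.8 and 88.7 CPM in control and at 124, 132 and 123 CPM in GFI1 libraries. In each state the GFI1 libraries lay above the control libraries, as for 32.2% of all genes tested in attached and 31.7% in floating cells. BCOR rose 1.26-fold with GFI1 in attached cells (0.33 ± 0.05 on the log2 scale, adjusted p 2.74e-06, edgeR's quasi-likelihood test) and 1.36-fold in the floating state (0.44 ± 0.05, adjusted p 4.34e-08).

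NCOR1 (ENSG00000141027), the scaffold that activates HDAC3, is a minus-strand gene of chromosome 17 from 16029157 to 16218185. In attached cells NCOR1 was at 179, 195 and 198 CPM in control and at 231, 247 and 240 CPM in GFI1 libraries. In floating cells it was at 174, 172 and 170 CPM in control and at 221, 226 and 237 CPM in GFI1 libraries. Here too the GFI1 libraries of each state lay above the control libraries of that state. Over all genes tested, the GFI1 group was wholly above its control for 32.2% in attached and 31.7% in floating cells. The rise was 1.26-fold in attached cells (0.33 ± 0.04, adjusted p 6.17e-07, edgeR's quasi-likelihood test) and 1.33-fold when floating (0.41 ± 0.05, adjusted p 2.06e-08). NCOR1 overlaps TTC19 and PIGL on the opposite strand, whose counts reached 1511 and 320 per library against 2864 to 5354 for NCOR1. Neither passed upward with GFI1: TTC19 was at -0.26 ± 0.05 and -0.08 ± 0.05 and PIGL at -0.11 ± 0.08 and 0.18 ± 0.08 log2 units in attached and floating cells. The NCOR1 pseudogenes NCOR1P1, NCOR1P2 and NCOR1P3 and the BCOR pseudogene BCORP1 were at 0 counts in all 12 libraries.

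BCORL1 (ENSG00000085185), the second PRC1.1 scaffold, is a plus-strand gene of chromosome X from 129981107 to 130058083. It was at 39.2, 48.7 and 39.4 CPM in attached control and at 47.9, 50.6 and 47.2 CPM in attached GFI1 libraries, which overlapped because of attached control replicate 2. In floating cells it was at 42.6, 41.0 and 43.1 CPM in control and at 53.3, 55.6 and 50.6 CPM in GFI1 libraries, with no overlap. BCORL1 rose 1.14-fold in attached cells (0.19 ± 0.07, adjusted p 0.0145, edgeR's quasi-likelihood test) and 1.26-fold when floating (0.33 ± 0.07, adjusted p 0.000135). The attached call was lost without attached control replicate 1 (adjusted p 0.109), attached control replicate 3 (0.111) or attached GFI1 replicate 2 (0.0721), and the value was 0.30 without attached control replicate 2.

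Thus the 3 tested genes other than BCL6 passed upward with GFI1 in attached and in floating cells. Over all genes tested, 29.5% passed upward in attached cells and 29.3% in floating cells. When only library size was scaled, the median of all genes moved to 0.14 log2 units in both comparisons, and 39.3% passed upward and 24.5% downward in attached cells and 38.4% and 24.2% in floating cells. The 3 genes remained higher on that scale, at 0.48 for BCOR, 0.48 for NCOR1 and 0.34 for BCORL1 in attached cells, and BCL6 remained lower at -0.73 and -1.40 in attached and floating cells.

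Suspension moved the corepressor genes little. In control cells BCOR was 1.15-fold lower (log2 fold change -0.21 ± 0.05, adjusted p 0.0023) and NCOR1 1.11-fold lower (-0.15 ± 0.05, adjusted p 0.0106, edgeR's quasi-likelihood test). BCORL1 was at -0.01 ± 0.07 (adjusted p 0.94). Of the 3 tested genes other than BCL6, 2 therefore passed downward and 0 upward, and over all genes 20.5% and 19.6% did. Their groups did not overlap, as for 25.2% of all genes in this direction. The NCOR1 call was lost without attached control replicate 3 (adjusted p 0.0652). In GFI1 cells 0 of the 3 passed by edgeR's quasi-likelihood test and 0 by DESeq2, with 0 at an unadjusted p under 0.05 in the former, and over all genes 15% passed upward and 16.3% downward. BCOR was at -0.10 ± 0.05 (adjusted p 0.146), with groups that did not overlap, as for 21.2% of all genes in this direction, NCOR1 at -0.07 ± 0.04 (0.264) and BCORL1 at 0.13 ± 0.07 (0.144). BCOR passed without floating GFI1 replicate 2 (-0.14, adjusted p 0.0396). The interaction of the 3 genes lay between 0.08 and 0.14 log2 units, with adjusted p values from 0.404 to 0.507 and unadjusted values from 0.144 to 0.223.

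**Figure D2:**
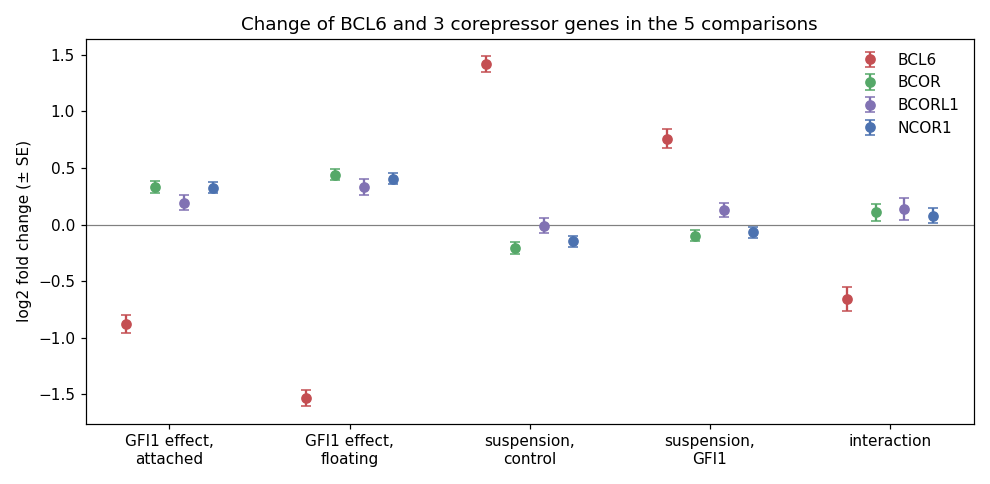
Log2 fold change with its SE (vertical axis) of BCL6, BCOR, BCORL1 and NCOR1 in the 4 pairwise comparisons and the interaction, each from 12 libraries in 1 model. BCL6 lies below 0 with GFI1 and above 0 after suspension, whereas the 3 corepressor genes lie between 0.19 and 0.44 with GFI1 and between -0.21 and 0.13 after suspension.

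Levels were compared between genes only per length, as RPKM (CPM divided by the gene length in kilobases given in the table). In attached control cells BCOR was at 12.6 ± 0.778 RPKM and NCOR1 at 12.4 ± 0.667, which did not differ beyond their spread, followed by BCORL1 (5.30 ± 0.678), BCL6 (3.34 ± 0.187) and BCL6B (0.0131 ± 0.000603, SD, n = 3). The ratio of NCOR1 to BCOR stayed between 0.948 and 1.07 in the 12 libraries. BCL6 took different places in this order. Its RPKM was 0.638 ± 0.0991 times that of BCORL1 in attached control cells, 0.299 ± 0.0195 in attached GFI1 cells, 1.69 ± 0.0510 in floating control cells and 0.465 ± 0.0477 in floating GFI1 cells. Floating control was the only group in which BCL6 exceeded BCORL1, and it did so in each of its 3 libraries. Relative to BCOR, BCL6 ran from 0.108 to 0.120 in attached GFI1 libraries and from 0.752 to 0.906 in floating control libraries. These ratios contain the BCL6 values that led to its selection and are a description.

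The partners of NCOR1 and BCOR did not follow a single direction. The NCOR1-HDAC3 list held 6 genes, all tested, of which 2 rose and 2 fell with GFI1 in attached cells, while 1 rose and 2 fell when floating. When only library size was scaled, 3 were higher and 2 lower in attached and 2 higher and 2 lower in floating cells. The list had medians of -0.09 and 0.05 log2 units, against -0.01 and 0.01 for all genes, of which 62.3% and 60.4% passed in either direction. CORO2A, an actin-linked subunit, fell most in the list, from 9.23, 10.5 and 10.1 CPM to 0.901, 0.923 and 1.05 CPM in attached cells (-3.36 ± 0.16) and by a similar -3.53 ± 0.12 when floating (adjusted p 7.59e-16 and 2.35e-18, edgeR's quasi-likelihood test). TBL1X, a WD40 subunit, fell in both states (-0.29 ± 0.05 and -0.54 ± 0.05). HDAC3, the deacetylase itself, was at 50.3 ± 4.23, 52.2 ± 2.28, 52.0 ± 2.49 and 51.2 ± 1.69 CPM in attached control, attached GFI1, floating control and floating GFI1 cells (SD, n = 3), and passed in no comparison (adjusted p 0.445 to 0.766).

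With suspension, CORO2A rose in control cells (1.24 ± 0.10) and in GFI1 cells (1.07 ± 0.21), so that CORO2A, like BCL6, was highest in floating control cells, at 23.4 ± 1.06 CPM. TBL1X fell with suspension in both genotypes (-0.44 ± 0.05 and -0.69 ± 0.05). In this list 1 gene was higher and 2 lower, NCOR1 itself among these, after suspension of control cells, and 1 was higher and 1 lower in GFI1 cells. Of all genes, 40.1% and 31.3% passed in these comparisons.

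The BCOR-PRC1.1 list held 11 genes, all tested, of which 4 rose and 2 fell with GFI1 in attached cells, while 5 rose and 2 fell when floating (medians 0.16 and 0.12). Over all genes, 29.5% were higher and 32.8% lower in attached and 29.3% and 31.1% in floating cells. When only library size was scaled, 6 of the list were higher and 1 lower in each state. BCOR and BCORL1 are themselves among the higher ones. The E3 ligases RING1 and RNF2, the catalytic subunits that modify H2A, rose together. RING1 changed by 0.59 ± 0.07 and 0.76 ± 0.07 and RNF2 by 0.62 ± 0.08 and 0.65 ± 0.08 in the attached and floating states (adjusted p 3.16e-07 or less, edgeR's quasi-likelihood test). USP7, a deubiquitinase of the complex, was lower (-0.40 ± 0.05 and -0.24 ± 0.05). KDM2B, which brings PRC1.1 to CpG islands, was lower in attached cells (-0.21 ± 0.06, adjusted p 0.00665) and at -0.05 ± 0.06 in floating cells (0.514). After suspension, 1 gene of the list was higher and 2 lower in control cells, and 2 were higher and 0 lower in GFI1 cells, where 19.6% and 20.5% of all genes were higher and lower in control cells and 15% and 16.3% in GFI1 cells. PCGF1, the subunit that defines PRC1.1, rose in control cells (0.32 ± 0.10, adjusted p 0.0109) and in GFI1 cells (0.27 ± 0.09, 0.0272), and RYBP rose in GFI1 cells (0.44 ± 0.10, 0.00144). The PCGF1 call in control cells was lost without attached control replicate 2 (adjusted p 0.0534) or floating control replicate 3 (0.0761). In GFI1 cells the PCGF1 call was lost under DESeq2. It was also lost there without attached GFI1 replicate 1, attached GFI1 replicate 2 or floating GFI1 replicate 1, whereas the RYBP call was kept. RYBP was at 46.2, 62.8 and 40.4 CPM in floating GFI1 libraries, and its rise was 0.22 without replicate 2 of that group. In the interaction, 0 of the 11 passed by edgeR's quasi-likelihood test and 0 by DESeq2, and 1 had an unadjusted p under 0.05 in the former, while 10.8% of all genes passed.

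**Figure D3:**
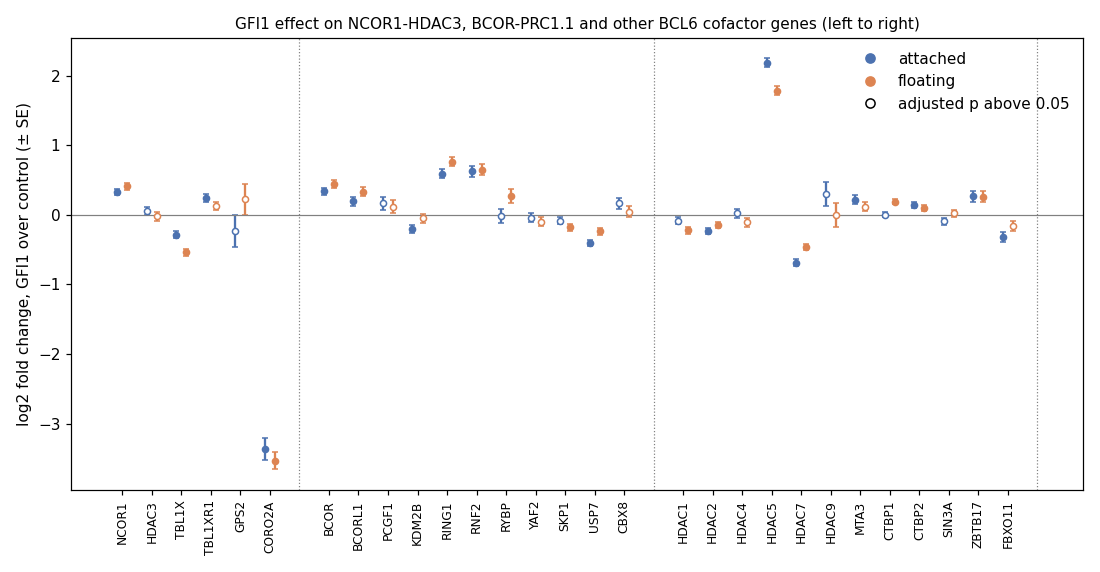
Log2 fold change with GFI1 and its SE (vertical axis) for each gene of the NCOR1-HDAC3, BCOR-PRC1.1 and other BCL6 cofactor lists, in attached (blue) and floating (orange) cells; open points did not pass an adjusted p of 0.05. Most genes lie within 1 log2 unit of 0, while CORO2A lies below -3 and HDAC5 at 2.19 and 1.78.

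Among 12 other BCL6 cofactors, 4 were higher and 3 lower with GFI1 in either state, with medians of 0.01 in both. This is 58.3% of the list, near the 62.3% and 60.4% of all genes that passed in attached and floating cells. When only library size was scaled, 7 were higher and 2 lower in attached and 6 higher and 1 lower in floating cells. Among the class IIa deacetylases HDAC4, HDAC5, HDAC7 and HDAC9, which include partners that bind BCL6 outside its BTB domain, HDAC5 rose and HDAC7 fell. HDAC4 (0.02 ± 0.07 and -0.11 ± 0.07) and HDAC9 (0.30 ± 0.17 and 0.00 ± 0.17) passed in neither state. HDAC5 rose from 20.7, 18.9 and 20.5 CPM to 88.3, 88.9 and 96.0 CPM in attached cells (2.19 ± 0.06, adjusted p 3.42e-20, edgeR's quasi-likelihood test) and by 1.78 ± 0.06 in floating cells. The change of HDAC7 was -0.69 ± 0.05 and -0.46 ± 0.05. With suspension, HDAC5 rose in control cells (0.59 ± 0.07) and less in GFI1 cells (0.19 ± 0.05), a difference of -0.40 ± 0.09 (interaction, adjusted p 0.00298). The rise in GFI1 cells was lost without floating GFI1 replicate 1 (adjusted p 0.0527) or 2 (0.052). HDAC7 fell by 0.22 on the log2 scale in control cells. Altogether 2 of these cofactors were higher and 4 lower after suspension of control cells (3 and 2 when only library size was scaled), and 1 was higher and 0 lower in GFI1 cells. The 6 calls in control cells fell to 3 without attached control replicate 1 and to 3 without floating control replicate 1. Of all genes, 40.1% passed in control and 31.3% in GFI1 cells.

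The factors known to control BCL6 transcription were examined next, and 7 of 9 could be tested. With GFI1, 3 rose and 2 fell in attached cells, while 5 rose and 2 fell when floating (medians -0.01 and 0.30), where 62.3% and 60.4% of all genes passed in either direction. STAT5A fell from 4.64, 5.32 and 5.97 CPM to 0.732, 0.831 and 0.951 CPM in attached cells (-2.65 ± 0.22) and by -2.88 ± 0.22 when floating (adjusted p 1.26e-10 and 1.32e-11, edgeR's quasi-likelihood test). STAT3, at 182 CPM in attached control cells, did not pass in attached cells (-0.01 ± 0.05, adjusted p 0.901) but rose in floating cells (0.39 ± 0.05), and the difference between the states passed (0.40 ± 0.06, adjusted p 0.000128). STAT5B had the same pattern, with an interaction of 0.37 ± 0.08 (0.00361). The forkhead genes FOXO1 (1.09 ± 0.10 and 1.15 ± 0.09), FOXO3 (0.38 ± 0.07 and 0.26 ± 0.07) and FOXO4 (1.62 ± 0.11 and 0.79 ± 0.10) also rose.

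With suspension of control cells, in which BCL6 was higher, FOXO3 (0.38 ± 0.07) and FOXO4 (1.07 ± 0.12) rose, while STAT3 (-0.21 ± 0.05) and STAT5B (-0.18 ± 0.06) fell. In GFI1 cells 4 of the 7 were higher and 0 lower (1 in all without floating GFI1 replicate 2), among them STAT3 with 0.19 ± 0.05. FOXO4 did not pass there (0.24 ± 0.09, adjusted p 0.0562, edgeR's quasi-likelihood test). Of the 7 factors, 4 passed in each genotype, against 40.1% and 31.3% of all genes. The list mixes factors that activate BCL6 with factors that repress it, such as PRDM1, so a single direction for the list is not defined.

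Genes described as BCL6 targets in B cells were compared because their levels can be set beside that of BCL6. Of 21, 16 could be tested, and 4 were higher and 11 lower with GFI1 in attached and in floating cells. The medians were -0.60 and -0.72. The counts over all genes were 29.5% and 32.8% in attached and 29.3% and 31.1% in floating cells, higher and lower. The members that passed have many other regulators, and the interferon gene IRF7 (2.75 ± 0.11 and 2.33 ± 0.11) and the adhesion receptor gene CD44 (-2.30 ± 0.04 and -2.22 ± 0.04) had the lowest adjusted p in each direction. MYC fell from 142 ± 7.81 to 62.6 ± 0.577 CPM in attached and from 116 ± 5.81 to 38.6 ± 2.14 CPM in floating cells (SD, n = 3). The checkpoint kinase gene CHEK1 (-0.89 ± 0.07 and -1.32 ± 0.08) and PRDM1, the plasma cell factor (-0.75 ± 0.24 and -1.09 ± 0.24), were lower. CXCR4 had 3 counts or fewer in each attached control library and was at least 11.8-fold higher in attached GFI1 cells, a bound set by 3 counts per library. Setting it to this bound left the median at -0.60.

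After suspension, 6 of the 16 targets were higher and 6 lower in control cells, and 4 higher and 6 lower in GFI1 cells (medians -0.10 and -0.07). Of all genes, 19.6% were higher and 20.5% lower in control cells and 15% and 16.3% in GFI1 cells. The cell cycle inhibitor gene CDKN1B rose more in control (0.71 ± 0.05) than in GFI1 cells (0.18 ± 0.06), with an interaction of -0.53 ± 0.08 (edgeR's quasi-likelihood test, adjusted p 3.43e-05). CDKN1A rose in both (0.47 ± 0.05 and 0.32 ± 0.05), and its interaction did not pass (-0.14 ± 0.07, adjusted p 0.186). SOCS2, a STAT5-induced feedback inhibitor, fell from 12.3 ± 0.849 to 4.32 ± 0.526 CPM in control cells and was at 11.03 ± 0.258 and 12.1 ± 2.17 CPM in attached and floating GFI1 cells. ID2 went opposite ways, with 0.73 ± 0.07 in control and -0.47 ± 0.09 in GFI1 cells (interaction -1.20 ± 0.12, adjusted p 7.76e-08). CD44 rose in both genotypes (0.41 ± 0.04 and 0.49 ± 0.04), and MYC fell in both (-0.30 ± 0.05 and -0.70 ± 0.06).

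BCL6 was then placed among the other BTB zinc-finger genes. Of 46, 42 could be tested. With GFI1, 20 rose and 11 fell in attached cells, while 25 rose and 8 fell when floating, BCL6 being among the lower ones in both. The medians of the family were 0.20 and 0.26. Over all genes, 29.5% were higher in attached and 29.3% in floating cells, against 47.6% and 59.5% of this family. When only library size was scaled, 27 were higher and 6 lower in attached and 28 higher and 6 lower in floating cells. ZBTB42 (1.66 ± 0.08 and 1.43 ± 0.08) led the rising genes by adjusted p, followed by ZBTB7B in attached (0.68 ± 0.04) and ZBTB4 in floating cells (0.76 ± 0.05). With BCL6, which is given with no test, left out of the ranking, the lower genes with the lowest adjusted p were ZBTB8A in attached (-1.93 ± 0.24) and ZBTB7C in floating cells (-2.81 ± 0.27).

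After suspension, 12 of the family were higher and 4 lower in control cells, and 14 were higher and 1 lower in GFI1 cells. BCL6 is counted among the higher ones in both, by the values that selected it, so nothing is read from its part in these counts and shares. These are 28.6% and 9.52% of the family in control cells, against 19.6% and 20.5% of all genes, and 33.3% and 2.38% in GFI1 cells, against 15% and 16.3%. With BCL6 left out of the ranking, ZBTB1 rose with the lowest adjusted p in both genotypes (0.50 ± 0.06 and 0.49 ± 0.05). ZBTB24 (-0.39 ± 0.08) and ZBTB45 (-0.31 ± 0.07) fell in control cells, and ZBTB24 also in GFI1 cells (-0.24 ± 0.08, adjusted p 0.0257 by edgeR's quasi-likelihood test and 0.0518 by DESeq2). Without single libraries that p rose to as much as 0.107, when attached GFI1 replicate 2 was left out. ZBTB7C resembled BCL6 in being highest in floating control cells. Its counts were 17, 25 and 17 in attached control, 11, 15 and 12 in attached GFI1, 60, 71 and 61 in floating control and 8, 7 and 15 in floating GFI1 libraries. ZBTB7C had an interaction of -2.01 ± 0.43 (edgeR's quasi-likelihood test, adjusted p 0.00254). In suspended GFI1 cells it was at -0.27 ± 0.35 (adjusted p 0.625), where BCL6 was at 0.76 ± 0.08.

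**Figure D4:**
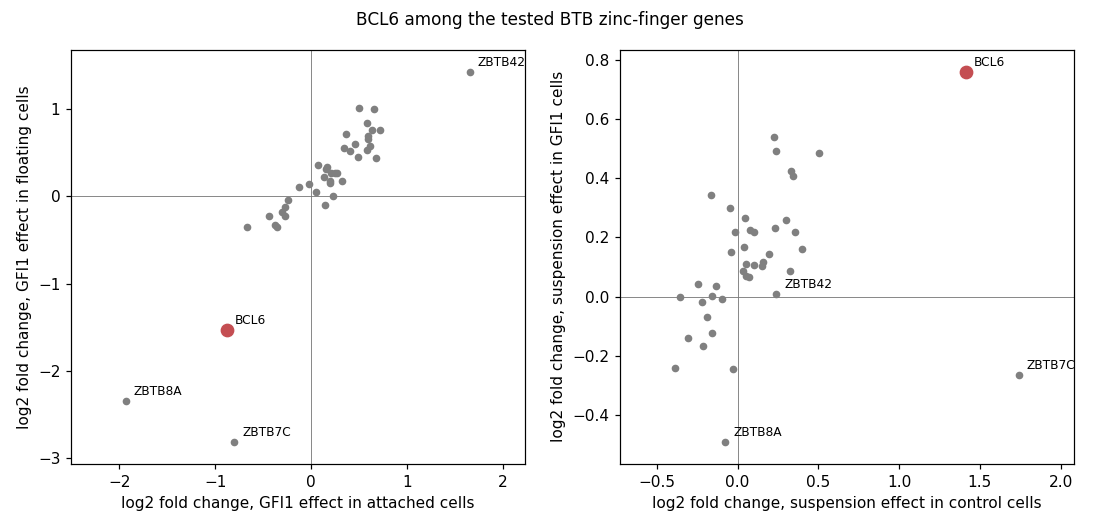
Log2 fold changes of the 42 tested BTB zinc-finger genes, with GFI1 in attached (horizontal) against floating cells (vertical) on the left and with suspension in control (horizontal) against GFI1 cells (vertical) on the right; each point is a gene, and BCL6 is red. BCL6 lies at -0.88 and -1.53 on the left, where ZBTB8A and ZBTB7C are also low, and at 1.42 and 0.76 on the right.

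Finally, the 5 protein-coding genes whose level ran most like that of BCL6 were named by the Pearson correlation of log2 CPM over the 12 libraries, among 11885 candidates whose mean log2 CPM was 1 or more. They were SLC22A23 (0.988), a transporter-like gene, LGR6 (0.986), an R-spondin receptor gene, FN1 (0.986), which encodes fibronectin, HHIPL2 (0.985) and PSD3 (0.984). FN1 was at 1553 CPM on average in attached control, 678 in attached GFI1, 4046 in floating control and 1124 in floating GFI1 cells. LGR6 was at 12.5, 4.799, 38.1 and 11.1 CPM in the same order. The 12 libraries form 4 groups, so these coefficients mainly describe the same order of group means. When only library size was scaled, 2 of the 5 were again among the first 5, and with the Spearman coefficient 0 were. By the same measure BCOR was at -0.90, NCOR1 at -0.87 and BCORL1 at -0.51. These coefficients also rest on the BCL6 values that selected it. No share over all genes was taken, so nothing is read from them.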

How the data were processed

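RNA-Seq of control and GFI1-expressing A549 cells, attached or floating, was analysed from a table of raw counts per gene in 12 libraries, which the authors deposited. Per the study's methods, poly-A RNA was sequenced on a NovaSeq system, reads were aligned to GRCh38 with Hisat2, and featureCounts was used. The submitters' processing notes name Bowtie2, HTSeq and hg38 instead. The annotation release and strand setting are not given in the sources used here.

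Groups and replicate numbers came from the sample titles. The test was edgeR 4.0.16 under R 4.3.3. The low-count filter was filterByExpr (minimum count 10, minimum total 15), and libraries were scaled by TMM and fitted in 1 quasi-likelihood model with 4 group means. The 5 contrasts were tested two-sided with Benjamini-Hochberg adjustment over 17829 genes, at 0.05 or less. SE was the log2 fold change divided by the square root of F. Log2 CPM used a prior count of 2. DESeq2 1.42.0, other scalings and filters, a replicate block and leaving out each library were alternatives. The code was tested on simulated data.

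The members and gene lists were chosen with earlier results of these data known. Some genes of the lists are not reported here and enter none of the list counts or medians. The text names the members, GFI1, the list genes with the lowest adjusted p per direction, other list genes, and the 5 genes most correlated with BCL6. Precision covers counting error and the spread of 3 libraries per group. 0 columns of per-sample values were left out.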

Additional observations from a re-analysis of the deposited data

Results flagged for a closer look

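The GFI1 effect differed between attached and floating cells for 15 list genes, by the interaction term of edgeR's quasi-likelihood model with an adjusted p of 0.05 or less. Of all genes tested, 10.8% passed. Those passing were 16.7% of NCOR1-HDAC3, 0% of BCOR-PRC1.1 and 25% of other cofactor genes. They were 42.9% of regulators, 31.2% of B cell targets and 9.52% of BTB genes, BCL6 included. Under the alternatives run, the NCOR1-HDAC3 call was lost in 6 and kept in 12, and the 3 cofactor calls fell to 1 in 5. For BCL6, whose values selected it, the difference was -0.66 log2 units and is given without a test. Among the 15, the difference in corepressor and cofactor genes was -0.25 for TBL1X, -0.40 for HDAC5, 0.23 for HDAC7 and 0.19 for CTBP1. Among regulators of BCL6 it was 0.40 for STAT3, 0.37 for STAT5B and -0.83 for FOXO4. Among the B cell targets it was -0.53 for CDKN1B, -0.43 for CHEK1, -0.40 for MYC, 1.64 for SOCS2 and -1.20 for ID2. In the BTB zinc-finger family it was -0.24 for ZBTB7B, 0.51 for ZBTB46 and -2.01 for ZBTB7C. GFI1 itself was 0.95 ± 0.10 log2 units (SE) higher in floating than in attached GFI1 cells. State and GFI1 level cannot be told apart in these differences. Groups of 3 libraries are too small for the check of single outlying libraries.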

How the results depend on the processing

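The count of genes other than BCL6 past the threshold was the same under DESeq2, RLE size factors, library size only, both other filters, only the 2 groups compared and the replicate block: 3, 3, 2, 0 and 0 for the GFI1 effects in attached and floating cells, the suspension effects in control and GFI1 cells, and the interaction. When single libraries were left out it ran from 2 to 3, 3 to 3, 1 to 2, 0 to 1 and 0 to 0. Replicate numbers did not pair the libraries: the deviations of same-numbered libraries correlated with a median of 0.00851 (-0.0670 to 0.0512, 18 pairs), and the block left the counts at 3, 3, 2, 0 and 0. BCORL1 in suspended control cells changed sign to 0.012 with library size only and 0.0040 under the filter of 10 counts in all 12 libraries. Leaving out single libraries moved it between -0.064 and 0.10, with a positive sign without attached control replicate 2 (0.10) or floating control replicate 2 (0.010). The 11 PRC1.1 genes gave 3 calls after suspension of control cells, and 5 when only the 2 groups compared entered the fit. After suspension of GFI1 cells they gave 2, and 1 by DESeq2, and in the interaction 0, and 1 with no low-count filter. The interaction called 3 other cofactors, and 1 by DESeq2, and 1 NCOR1-HDAC3 gene, and 0 with no low-count filter. The cause of these changes was not tested. The BCL6 interaction, a description, lay between -0.71 and -0.61 under the alternatives run. BCL6B had at most 7 counts per library, which limits any statement about it.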
